A study of Mus musculus with 6 samples.

Results

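Mitochondria make most of a cell's ATP by oxidative phosphorylation. Complex I (NADH dehydrogenase) and complex II (succinate dehydrogenase, also an enzyme of the citric acid cycle) hand electrons to ubiquinone, complex III (cytochrome bc1) carries them on to cytochrome c, and complex IV (cytochrome c oxidase) gives them to oxygen, while complex V (ATP synthase) spends the proton gradient that complexes I, III and IV build. In theca cells, the steroid-making and contractile cells around ovarian follicles, mitochondria also house the enzyme that starts steroid synthesis from cholesterol. The nuclear genes for subunits of these complexes were picked by symbol, taking each probe set with a single gene symbol of the form Nduf (a, b, c, s or v with a number), Sdha to Sdhd, Uqcr, Cox4 to Cox8 or Atp5. The rule found 163 probe sets of 80 genes among 18193 named genes, with 34 genes of complex I, 4 of complex II, 8 of complex III, 17 of complex IV and 17 of complex V.

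The study measured RNA of Gli1-lineage cells from ovaries of female mice of strain 129S6/SvEvTac aged 2 months, all carrying Gli1-CreERT2 and Rosa-LSL-tdTomato. In such mice tamoxifen switches on tdTomato for good in cells that express Gli1 at that moment. Mesonephros_theca samples (mesonephros-derived, 3 arrays) had received tamoxifen before birth, on the embryonic days E12.5, then E14.5 and lastly E16.5, and Ovary_theca samples (ovary-derived, 3 arrays) after birth, on days 1 to 3 through the dam's milk. Cells with tdTomato were sorted from digested ovaries, and the question was how cells named for these origins differ in the adult. Origin and time of tamoxifen differ together and cannot be told apart, and the Gli1 promoter decides which cells carry the label, whatever their type. The labels do not state whether the samples of a group are separate animals, so the spread behind each p-value may be technical. In bulk RNA, fewer cells of a type and less RNA per cell cannot be told apart.

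Signals had been scaled by the authors to a trimmed mean of 500.002 to 500.003 on every array. Mesonephros_theca arrays correlated with each other at 0.844 to 0.896, Ovary_theca arrays at 0.963 to 0.973. Between the groups the correlations were 0.871 to 0.95. Probe sets for poly-A control RNA read 11.2, 10.3 and 2.12 times the Ovary_theca mean on Mesonephros_theca replicates 1, 2 and 3, and 0.609 to 1.61 times on Ovary_theca arrays. Gapdh had a 3′ to 5′ signal ratio, which climbs as RNA degrades, of 5.29, 3.48 and 2.63 on Mesonephros_theca and 1.94 to 2.86 on Ovary_theca arrays. The same ratio for Actb was not raised, at 0.887, 0.929 and 0.894 on Mesonephros_theca and 0.92 to 1.01 on Ovary_theca arrays. The 6 theca markers on the array summed to a signal of 25951 to 43238 on Mesonephros_theca and 16560.0 to 24212 on Ovary_theca arrays. They did not share a direction, with 4 changes above 0 and 2, of Hhip and Nr5a1, below 0. The 11 smooth muscle and pericyte markers, all with changes above 0 as deposited, summed to 89457 to 115687 on Mesonephros_theca and 43671 to 52008 on Ovary_theca arrays. After quantile normalization, described below, 10 were above 0, and their median change went from 1.20 to 0.63. The 5 stroma markers, 4 with changes above 0 as deposited and 3 after, summed to 54342 to 71095 on Mesonephros_theca and 38838 to 43431.5 on Ovary_theca arrays. Sums of 6 endothelial markers were 3307 to 5339 on Mesonephros_theca and 4871 to 7742 on Ovary_theca arrays, with 1 change above 0 and 5 below. Sums of 6 macrophage markers were 388 to 5632 on Mesonephros_theca and 3381 to 5039 on Ovary_theca arrays. These sums overlapped, but all 6 macrophage markers had changes below 0. The 7 granulosa markers on the array summed to 5775 to 6770.3 on Mesonephros_theca and 5184 to 6837 on Ovary_theca arrays. Most of that was Foxl2, a transcription factor, at 3434, 4626 and 3912 on Mesonephros_theca arrays, against 4372, 5330.0 and 3858 on Ovary_theca arrays, while Fshr, the receptor for follicle-stimulating hormone, and all 6 oocyte markers were below the detection floor on every array. Amh, another granulosa marker, read 511, 234 and 33.4 on Mesonephros_theca arrays, against 20.7, 28.1 and 34.7 on Ovary_theca arrays. Of the 4 granulosa markers bright enough to test, 3 had changes above 0 and 1, Foxl2, below 0. The part of these differences in the results below was not tested.

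By brightest probe set, subunit genes as a module differed little in median between the groups. Of them 0 passed the test, but only 0.0427% of all genes did, so this count does not set them apart. Signals were taken as log2(signal + 16) and each gene was represented by its brightest probe set. The test, limma with Benjamini-Hochberg adjustment over all genes, covered the 11703 genes whose mean reached a floor of 99.4 signal units, the 40th percentile of the array, and 78 of the 80 members were among them. The other 2 were Cox7b2, a testis isoform, and Cox8b, a muscle isoform with signals of 40.8, 55.5 and 146 on Mesonephros_theca arrays, against 48.0, 126 and 111 on Ovary_theca arrays. At an adjusted p of 0.05 limma called 5 genes (0.0427%), none of them a member, and the smallest adjusted p of a member was 0.247, for Ndufb7. At an unadjusted p of 0.05, 4 members were higher and 1 was lower in Mesonephros_theca samples, where 6.46% and 7.22% of all genes were (13.7% in all). The groups did not overlap for 12 higher and 3 lower members, beside 9.56% and 12.6% of all genes (22.2% in all).

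Every log2 change below is Mesonephros_theca minus Ovary_theca, with its standard error after the ± sign. Over the 78 members the median log2 change was 0.054, beside −0.082 over all genes, with 44 members above 0 and 34 below it (43.5% of all genes were above 0). Measured from the mean of the Ovary_theca arrays, the median member lay at 0.093, 0.0063 and 0.12 on the Mesonephros_theca replicates, against 0.11, −0.11 and 0.016 on the Ovary_theca replicates. The groups overlapped in this measure. For 65 of the 78 the change was under 0.5 log2 units in size, a limit chosen after the values were seen. The share of all genes, or of equally bright genes, under this limit is not given here. The count therefore does not set subunit genes apart. Members varied less within groups than genes in general, with a median SD of 0.28 log2 units among Mesonephros_theca and 0.18 among Ovary_theca arrays, where all genes had 0.48 and 0.21. Most members were bright genes, and the SD of equally bright genes is not given here. The lower SD therefore does not set subunit genes apart. Mesonephros_theca replicate 1 was the lowest of the 6 arrays for 22 of the 78 members. The share of all genes lowest on that array is not given here, but their median position was also lowest on it, at −0.086. The count is therefore not a trait of subunit genes by itself.

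**Figure D1:**
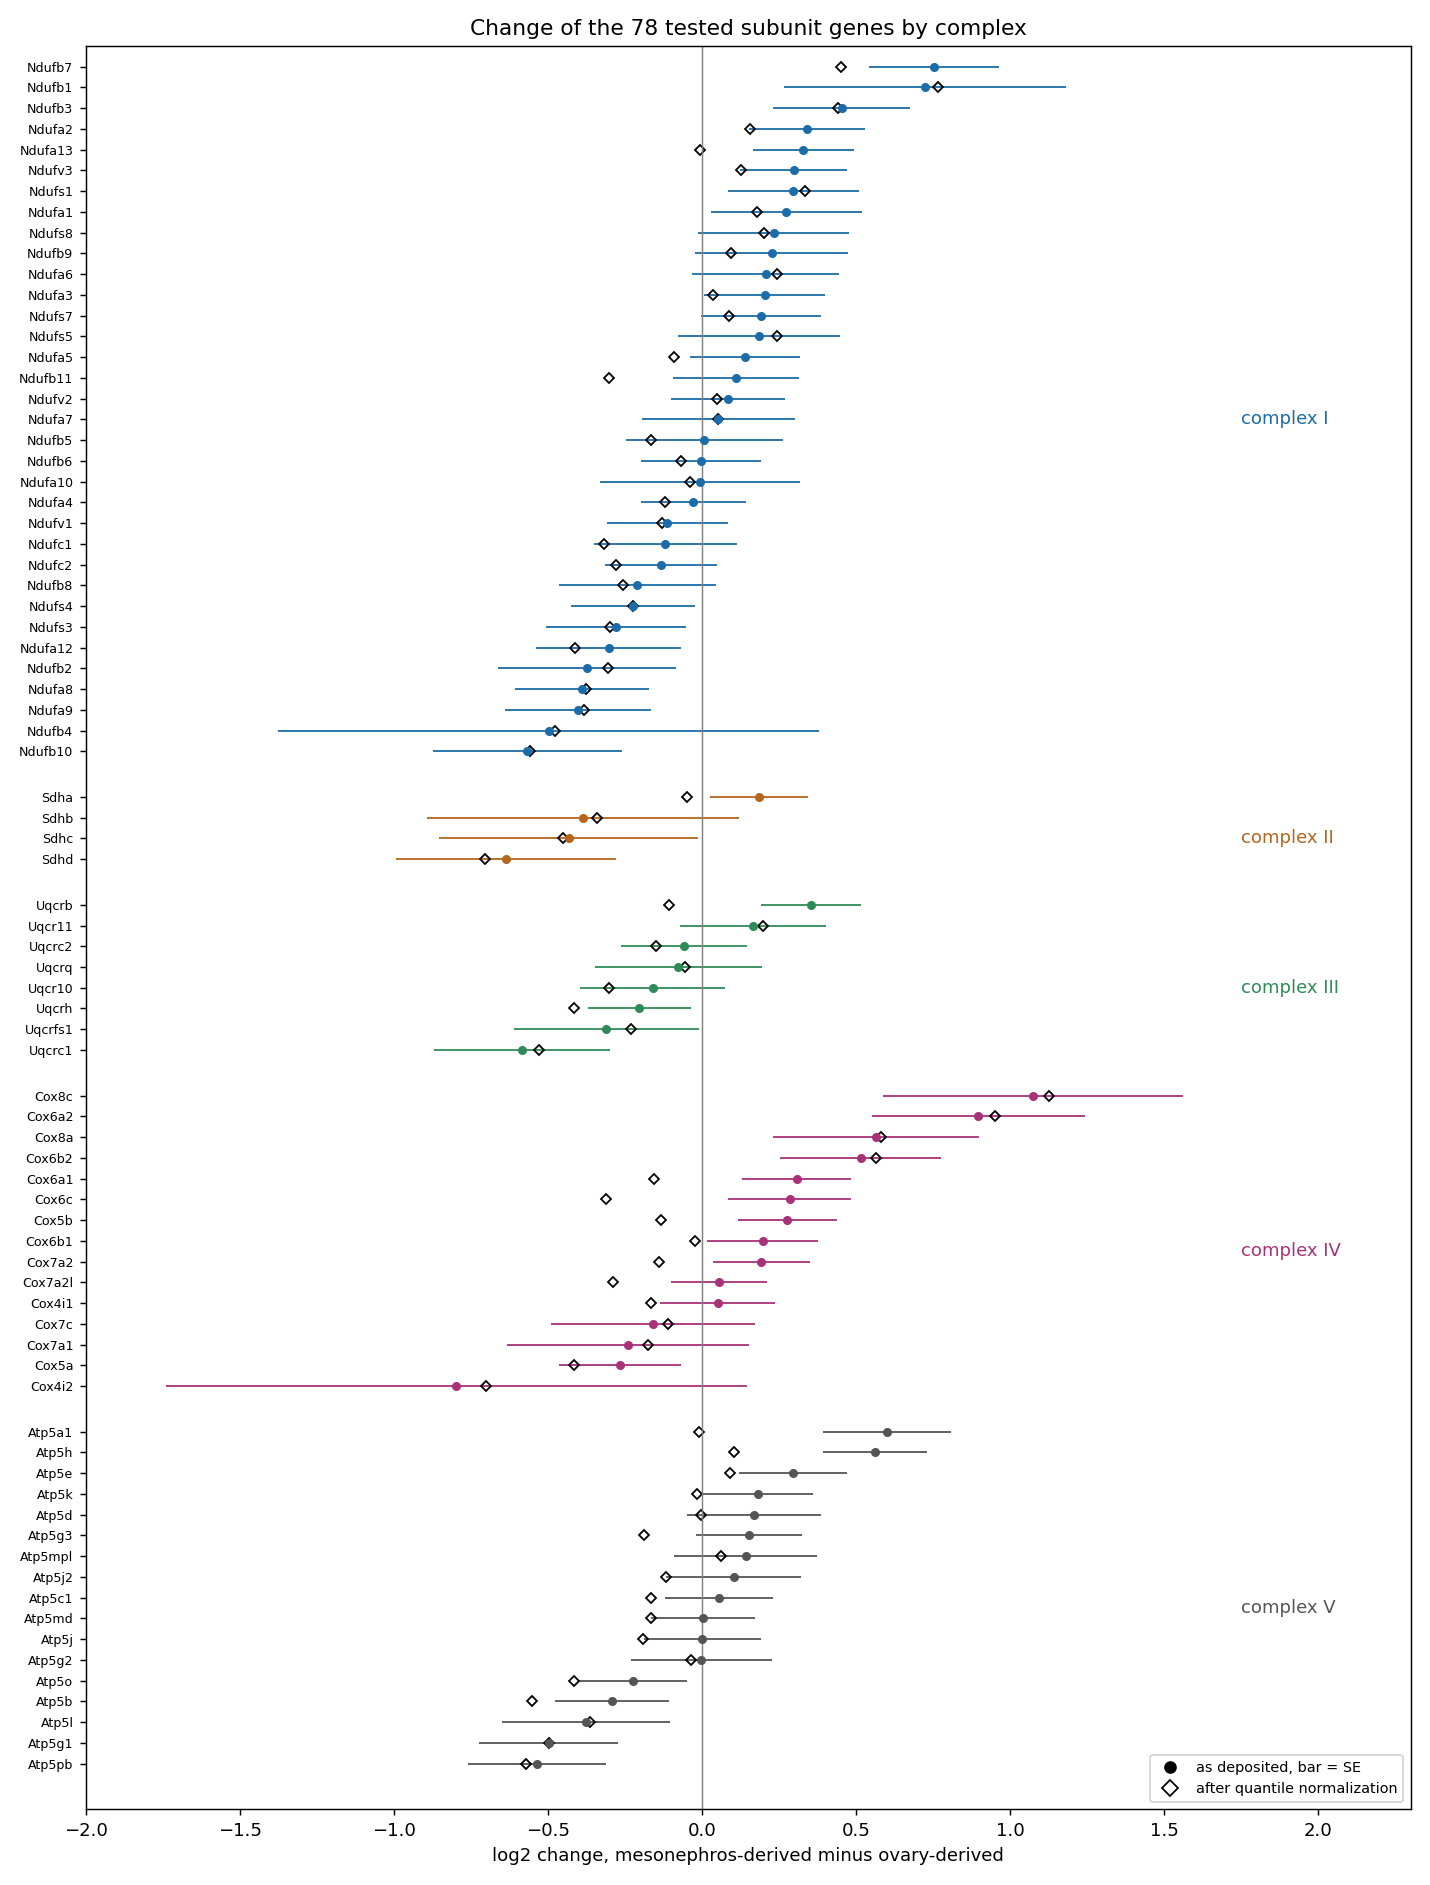
Log2 change (x axis, Mesonephros_theca minus Ovary_theca) of the 78 tested subunit genes, one per line and grouped by complex; filled points with bars are deposited values with their SE, open diamonds are values after quantile normalization. Of the 78 points 65 lie within 0.5 of 0, and for 21 genes the diamond is below 0 while the point is above it.

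The direction of the module depended on the scaling. Quantile normalization, which forces 1 common distribution of signals on all arrays, left 23 members above 0 and 55 below (44.4% of all genes were above 0), with a median of −0.13 beside −0.065 over all genes. The median member then lay at −0.20, −0.099 and 0.053 on the Mesonephros_theca replicates, against 0.11, −0.11 and −0.034 on the Ovary_theca replicates, again with overlap. All 21 members that switched sign had been above 0 as deposited. limma again called 5 genes (0.0427%) and 0 members, and the smallest adjusted p of a member was 0.248, for Atp5b. At an unadjusted p of 0.05, 3 members were higher and 6 lower, beside 6.03% and 7.14% of all genes (13.2% in all). The groups did not overlap for 4 higher and 8 lower members, beside 9.2% and 12.1% (21.4% in all).

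**Figure D2:**
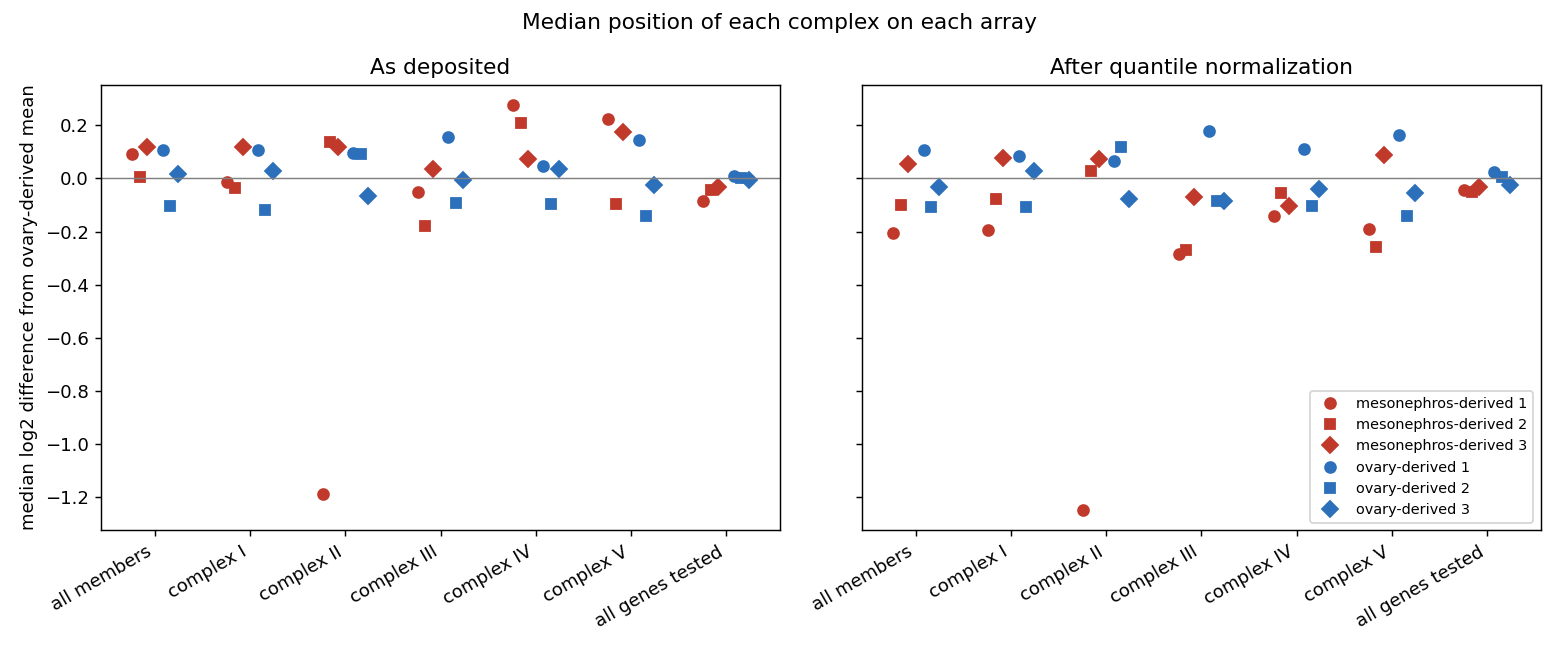
Median log2 difference from the Ovary_theca mean (y axis) over all members, each complex and all genes, 1 point per array, as deposited (left) and after quantile normalization (right); red is Mesonephros_theca and blue is Ovary_theca. Complex IV separates the groups on the left and not on the right, and complex II is low on Mesonephros_theca replicate 1 only. All genes lie slightly lower on every Mesonephros_theca array on both sides.

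Members were mostly bright genes, and bright genes were higher as deposited. Of the tested members, 63 were in the brightest of 5 equal bins of tested genes. In that bin 36 of the 63 members were above 0 with a median of 0.052, beside 56.5% of all its genes with a median of 0.055. The 4 dimmer bins had medians of −0.14 to −0.10 over all genes. At mean signals of 8000 or more, a limit also chosen after the values were seen, 12 of 12 members were above 0 with a median of 0.30, and so were 246 of 256 genes with a median of 0.46. After quantile normalization 2 of these members were above 0 (median −0.14), as were 111 of the genes (median −0.042). The 66 dimmer members had medians of −0.0037 as deposited and −0.13 after quantile normalization.

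**Figure D3:**
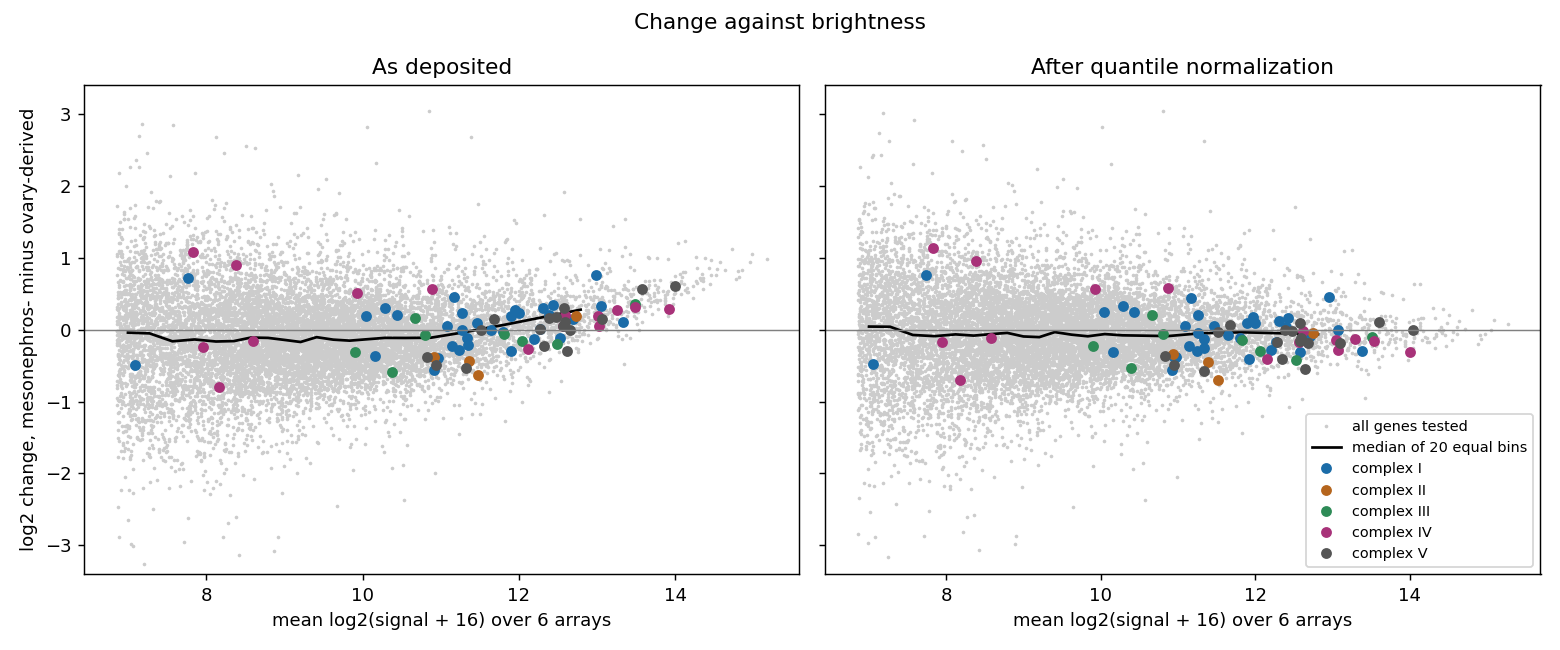
Log2 change (y axis) against mean log2(signal + 16) over 6 arrays (x axis), for all tested genes in grey and subunit genes coloured by complex, as deposited (left) and after quantile normalization (right); the black line joins the medians of 20 equal bins. On the left the line lies above 0 at the bright end, where most subunit genes sit, and on the right it lies near 0 there.

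Groups without overlap in the same direction under both scalings were found for 4 higher members (Ndufb7, Cox6a2, Cox6b2 and Atp5h) and 2 lower members (Atp5g1 and Atp5pb), beside 7.67% and 10.7% of all genes (18.3% in all). Promoters of nuclear genes for mitochondrial proteins often carry sites for NRF1 and for ETS factors such as GABP, and the promoters of these 6 members are shown where a window was at hand, which leaves out Cox6a2. The windows, from RefSeq on build GRCm38.p6, run 5′ to 3′ from 250 bases before to 50 after the annotated start, with Ndufb7 at chr8:83566508-83566807 (+ strand), Cox6b2 at chr7:4753045-4753344 (- strand), Atp5h at chr11:115419870-115420169 (- strand), Atp5g1 at chr11:96075582-96075881 (- strand) and Atp5pb at chr3:105959214-105959513 (- strand). Capitals mark matches on either strand to the NRF1 core (GCGCA, any base, GCGC), the ETS core (CCGGAAG), the YY1 core (AAGATGGCG) or the cAMP response element (TGACGTCA).
Ndufb7: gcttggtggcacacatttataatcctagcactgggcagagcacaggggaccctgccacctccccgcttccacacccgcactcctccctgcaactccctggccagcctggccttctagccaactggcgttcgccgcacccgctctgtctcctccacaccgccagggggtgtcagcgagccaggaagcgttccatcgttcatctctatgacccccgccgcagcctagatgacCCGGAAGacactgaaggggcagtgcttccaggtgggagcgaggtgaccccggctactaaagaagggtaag
Cox6b2: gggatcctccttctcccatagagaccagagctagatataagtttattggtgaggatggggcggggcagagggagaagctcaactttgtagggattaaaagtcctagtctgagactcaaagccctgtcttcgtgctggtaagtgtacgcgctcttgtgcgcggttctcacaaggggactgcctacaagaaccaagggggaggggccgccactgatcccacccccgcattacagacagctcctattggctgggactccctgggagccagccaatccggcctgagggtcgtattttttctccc
Atp5h: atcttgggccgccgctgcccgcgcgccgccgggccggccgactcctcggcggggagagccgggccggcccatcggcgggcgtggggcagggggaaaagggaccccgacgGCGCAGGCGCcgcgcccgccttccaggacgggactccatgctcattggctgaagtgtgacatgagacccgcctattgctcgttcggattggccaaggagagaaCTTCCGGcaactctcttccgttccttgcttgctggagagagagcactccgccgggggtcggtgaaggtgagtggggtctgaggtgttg
Atp5g1: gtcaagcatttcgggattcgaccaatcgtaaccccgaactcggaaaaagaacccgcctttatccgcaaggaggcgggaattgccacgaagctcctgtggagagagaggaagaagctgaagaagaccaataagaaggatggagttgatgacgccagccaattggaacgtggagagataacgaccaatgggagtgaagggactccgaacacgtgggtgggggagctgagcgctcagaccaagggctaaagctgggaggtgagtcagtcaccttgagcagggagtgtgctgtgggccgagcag
Atp5pb: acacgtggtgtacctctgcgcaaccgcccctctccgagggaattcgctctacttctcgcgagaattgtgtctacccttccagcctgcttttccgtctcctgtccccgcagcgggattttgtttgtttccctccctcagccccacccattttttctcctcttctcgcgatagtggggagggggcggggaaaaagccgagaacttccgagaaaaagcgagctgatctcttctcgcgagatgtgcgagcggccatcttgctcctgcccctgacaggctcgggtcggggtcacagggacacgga
The window of Ndufb7 held an ETS core and that of Atp5h an NRF1 core and an ETS core, while those of Cox6b2, higher like both, and of Atp5g1 and Atp5pb, which were lower, held none of these letters.

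Windows were at hand for 66 of the 80 genes, 9471 tested genes and 32851 windows in all. The NRF1 core was present for 15 (22.7%), beside 11.5% of tested genes and 4.6% of all windows. The ETS core was present for 17 (25.8%), beside 19.9% of tested genes and 8.86% of all windows. The YY1 core was present for 6 (9.09%), beside 3.59% of tested genes and 1.4% of all windows, and the cAMP response element for 3 (4.55%), beside 3.58% of tested genes and 1.79% of all windows. CCAAT was present for 28 (42.4%), beside 42.9% of tested genes and 37.4% of all windows, and TATAAA for 8 (12.1%), beside 8.88% of tested genes and 13.6% of all windows. Matches of different motifs shared no bases in the members' windows, whose GC content was 57.8% against 53.8% in all windows. Members with an NRF1 core had a median change of 0.14 (n = 15) and members without it one of 0.0010 (n = 49). After quantile normalization these were −0.16 and −0.14, in the other order. Members with an ETS core had a median of 0.17 (n = 17) and members without it one of −0.0028 (n = 47), and −0.070 and −0.17 after quantile normalization, in the same order.

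Complex I takes electrons from NADH through a flavin and iron-sulfur clusters. Its 34 genes had a median change of 0.069 (19 above 0), and of −0.055 (15 above 0) after quantile normalization. Its median gene lay at −0.012, −0.035 and 0.12 on the Mesonephros_theca replicates, against 0.11, −0.12 and 0.028 on the Ovary_theca replicates, with overlap. Without Ndufa4, which is now placed in complex IV, the median was 0.085. By position, the 7 genes of the NADH-oxidising module had a median of 0.085, the 7 of the ubiquinone-reducing module 0.14 and the 19 of the membrane arm 0.0075.

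Core subunits of complex I do its catalytic work, and the groups overlapped for all 6 core members described here. Ndufs1, the largest iron-sulfur subunit, had signals of 1258, 1489.5 and 1381 on Mesonephros_theca arrays, against 1046, 1039 and 1277 on Ovary_theca arrays. Its change was 0.30 ± 0.21 (limma, adjusted p of 0.553), and 0.33 after quantile normalization. Ndufs3, in the ubiquinone-reducing module, had 1885, 1914 and 2837 (Mesonephros_theca) against 2886, 2261 and 2815 (Ovary_theca), a change of −0.28 ± 0.23. Ndufv1, which binds the flavin and NADH, stood at −0.11 ± 0.20, with other probe sets at −0.42 and 0.20. Its neighbour Ndufv2 stood at 0.085 ± 0.18, Ndufs7, which holds the last cluster before ubiquinone, at 0.19 ± 0.19, and Ndufs8, which holds another pair of clusters, at 0.23 ± 0.24. The other probe sets of Ndufv2 stood at −0.0082 and 0.53, and that of Ndufs7 at −0.0082. The sign of Ndufs8 depended on the probe set, since the others past the floor stood at 0.19, −0.38, 0.26, −0.62 and 0.41.

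Accessory subunits surround this core and help to assemble and hold it, and Ndufb7 among them had the smallest p of all members. Ndufb7, on the outer face of the membrane arm, had signals of 12898, 11314 and 7895 on Mesonephros_theca arrays, against 6052, 5674 and 6995 on Ovary_theca arrays. Every Mesonephros_theca array lay above every Ovary_theca array. Its signal was 10702 ± 2557 in Mesonephros_theca and 6240.3 ± 680.1 in Ovary_theca samples (mean ± SD, n = 3 each). The change was 0.75 ± 0.21 (limma, adjusted p of 0.247), 0.45 after quantile normalization (adjusted p of 0.262), 0.36 with its other probe set, and 0.60 to 0.96 without single arrays. Ndufa13, also known as GRIM-19, had 10317, 8954 and 9245 (Mesonephros_theca) against 7223, 6899 and 8648 (Ovary_theca), without overlap. Its change of 0.33 ± 0.16 became −0.0054 after quantile normalization. Ndufb3, in the membrane arm, stood at 0.45 ± 0.22, with overlap, and 0.44 after quantile normalization.

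Ndufb10, another membrane arm subunit, pointed down in mean with signals of 1110.1, 1415 and 2427 on Mesonephros_theca arrays, against 2920.5, 2221 and 1933 on Ovary_theca arrays. One Mesonephros_theca array was inside the Ovary_theca range, and the change was −0.57 ± 0.31 (limma, adjusted p of 0.438) and −0.32 without Mesonephros_theca replicate 1. Ndufb11, also of the membrane arm, stood at 0.11 ± 0.20 as deposited and −0.30 ± 0.15 after quantile normalization, and its other probe sets at 0.30 and −0.84. Ndufb4 was singled out after its values were seen because 1 array decided its sign. Its signals were 6.74, 191 and 297 on Mesonephros_theca arrays, against 121, 151 and 166 on Ovary_theca arrays, with only Mesonephros_theca replicate 1 below the floor, and its change of −0.50 ± 0.88 became 0.66 without that array.

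Complex II, the link between citric acid cycle and electron transport, had a median change of −0.41, or −0.40 after quantile normalization, and of 0.18 without Mesonephros_theca replicate 1. Its median gene lay at −1.19, 0.14 and 0.12 on the Mesonephros_theca replicates, against 0.094, 0.091 and −0.067 on the Ovary_theca replicates, so only Mesonephros_theca replicate 1 was low. Sdhb, the iron-sulfur subunit, had signals of 636, 3050.2 and 2378 on Mesonephros_theca arrays, against 2402, 1777 and 2448 on Ovary_theca arrays. Its change of −0.39 ± 0.51 (limma, adjusted p of 0.755) became 0.30 without Mesonephros_theca replicate 1. Sdhc, a membrane anchor, had 1024, 2945 and 3774 (Mesonephros_theca) against 3162, 3233 and 2762 (Ovary_theca), and its change of −0.43 ± 0.42 became 0.13 without that array. The brightest probe sets of both genes were lowest on the same array. The other Sdhc probe set past the floor had 982, 542 and 1275 (Mesonephros_theca) against 1771, 1438 and 1408 (Ovary_theca), lower on every Mesonephros_theca array and lowest on replicate 2, a change of −0.79.

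Sdhd, the other anchor, had signals of 2000.0, 3277 and 1792 on Mesonephros_theca arrays, against 4845, 4452 and 2055 on Ovary_theca arrays. Ovary_theca replicates 1 and 2 were high and replicate 3 lay among the Mesonephros_theca arrays. The change was −0.64 ± 0.36 (limma, adjusted p of 0.454), −1.03 to −0.41 without single arrays and −0.10 with its other probe set. Sdha, the flavoprotein that oxidises succinate, had 6889.6, 7989 and 6923 (Mesonephros_theca) against 5939, 6819.8 and 6398 (Ovary_theca), without overlap. Its change was 0.19 ± 0.16 as deposited, −0.050 after quantile normalization and −0.16 with its other probe set.

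Complex III had 2 of 8 genes above 0 and a median change of −0.12, and 1 above 0 with a median of −0.19 after quantile normalization. Its median gene lay at −0.052, −0.18 and 0.034 on the Mesonephros_theca replicates, against 0.15, −0.091 and −0.0078 on the Ovary_theca replicates, with overlap. Uqcrc1, a core protein on the matrix side, had signals of 704, 1181 and 1479 on Mesonephros_theca arrays, against 1519, 1708 and 1624 on Ovary_theca arrays. Every Mesonephros_theca array was lower, replicate 1 the most. Its change was −0.58 ± 0.29 (limma, adjusted p of 0.403), −0.53 after quantile normalization and −0.29 without that replicate. Its partner Uqcrc2 stood at −0.059 ± 0.20. The other Uqcrc2 probe set had 1657, 1478 and 1432 (Mesonephros_theca) against 2137, 1918 and 1810.2 (Ovary_theca), lower on every Mesonephros_theca array, a change of −0.36. For the Rieske iron-sulfur protein Uqcrfs1 the change was −0.31 ± 0.30, and Uqcrfs1 and the brighter Uqcrc2 probe set overlapped between the groups.

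Small subunits of complex III did not share a direction. Uqcrb, which lies near the ubiquinone site, had signals of 15126, 12491 and 11375 on Mesonephros_theca arrays, against 10143, 10097 and 10066 on Ovary_theca arrays. The groups did not overlap, and the change was 0.35 ± 0.16 (limma, adjusted p of 0.381), but −0.11 after quantile normalization and −0.061 with its other probe set. Uqcrh, the hinge protein beside cytochrome c1, had 5489, 4761 and 5881 (Mesonephros_theca) against 6696, 5728 and 6127 (Ovary_theca). Its groups overlapped as deposited, at −0.20 ± 0.17, and not after quantile normalization, at −0.42 ± 0.15 (limma, adjusted p of 0.322), and its other probe set stood at −0.18.

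Complex IV alone among the complexes had median positions that separated the groups as deposited, at 0.28, 0.21 and 0.075 for Mesonephros_theca and 0.047, −0.095 and 0.036 for Ovary_theca. The medians over all genes also separated the groups, the other way, at −0.086, −0.045 and −0.033 against 0.0078, 0.0027 and −0.0066. The median change of the 15 tested complex IV genes was 0.20, with 11 above 0. After quantile normalization the positions were −0.14, −0.055 and −0.10 for Mesonephros_theca and 0.11, −0.10 and −0.041 for Ovary_theca, which overlap, and the median change was −0.14 with 4 above 0. Mitochondrial DNA encodes the catalytic core, and the genes here encode the proteins around it. The 9 broadly expressed ones had a median of 0.20, or −0.14 after quantile normalization, and 6 of them changed sign between the scalings.

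Cox6a1, the broadly expressed subunit VIa, had signals of 15657, 11378 and 11612 on Mesonephros_theca arrays, against 10634, 9525 and 10762 on Ovary_theca arrays. All Mesonephros_theca arrays were higher, yet its change of 0.31 ± 0.18 became −0.16 after quantile normalization. Cox4i1, the broadly expressed subunit IV, stood at 0.051 ± 0.19 and −0.17 under the 2 scalings, Cox6b1 (subunit VIb) at 0.20 ± 0.18 and −0.023, and Cox7a2 (subunit VIIa) at 0.19 ± 0.16 and −0.14. Cox7a2l, which helps complexes III and IV to join into supercomplexes, stood at 0.056 ± 0.16 as deposited and −0.29 ± 0.11 after quantile normalization (limma, adjusted p of 0.34). The other probe set stood at 0.17 for Cox6a1, 0.35 for Cox6b1 and −0.14 for Cox7a2, and the others of Cox7a2l at −0.12 and −0.21. Cox8a (subunit VIII) had 1562, 4022 and 1891 (Mesonephros_theca) against 1619, 1357 and 1653 (Ovary_theca), with 1 high Mesonephros_theca array. Its change of 0.57 ± 0.33 became 0.16 without Mesonephros_theca replicate 2, and its other probe set stood at 0.66.

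Tissue isoforms of complex IV take the place of broadly expressed subunits in muscle, testis or lung. The 5 tested ones had a median change of 0.51, and 0.57 after quantile normalization, with 3 above 0 under both. Cox6a2, the heart and skeletal muscle form of subunit VIa, had signals of 379, 416 and 539 on Mesonephros_theca arrays, against 179, 216 and 308 on Ovary_theca arrays. The groups did not overlap under either scaling. Its signal was 445 ± 83.8 in Mesonephros_theca and 234 ± 66.6 in Ovary_theca samples (mean ± SD, n = 3 each). The change was 0.90 ± 0.35 (limma, adjusted p of 0.331), and 0.95 ± 0.32 after quantile normalization (adjusted p of 0.299). Smooth muscle and pericyte markers were also higher in Mesonephros_theca samples, by the sums given above, and their part in this value was not tested.

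Cox6b2, the testis form of subunit VIb, had signals of 1473, 1069 and 963 on Mesonephros_theca arrays, against 674, 931 and 815 on Ovary_theca arrays. These did not overlap either, and the change was 0.51 ± 0.26 (limma, adjusted p of 0.412) and 0.57 after quantile normalization. Cox8c, a testis form of subunit VIII, had 340.3, 456 and 199 (Mesonephros_theca) against 82.9, 131 and 250.3 (Ovary_theca), with overlap and 1 Ovary_theca array below the floor. Its change of 1.08 ± 0.49 (limma, adjusted p of 0.372) was the largest in size among the brightest probe sets of the 78 members. Without single arrays it was 0.74 to 1.46. Some dimmer probe sets past the floor changed more, such as one of Ndufb5 at −1.35 and one of Atp5j2 at 1.37, both without overlap. The latter was below the floor on all Ovary_theca arrays. The brightest probe sets of these genes stood at 0.0075 and 0.10. Cox7a1, the heart and skeletal muscle form of subunit VIIa, stood at −0.24 ± 0.39, with overlap. Cox4i2, the form of subunit IV known from lung, had 18.4, 570.2 and 489.5 (Mesonephros_theca) against 326, 398 and 363 (Ovary_theca). Only Mesonephros_theca replicate 1 was below the floor while the other two exceeded every Ovary_theca array, and the change of −0.80 ± 0.94 became 0.53 without it.

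Isoforms were also set against their broadly expressed partners array by array, as a difference of log2 signals. The change of this difference was 0.59 for Cox6a2 and Cox6a1, 0.32 for Cox6b2 and Cox6b1, 0.51 for Cox8c and Cox8a, −0.43 for Cox7a1 and Cox7a2, and −0.85 for Cox4i2 and Cox4i1. After quantile normalization the same changes were 1.11, 0.59, 0.55, −0.036 and −0.53. As deposited the groups overlapped for all 5 pairs. After quantile normalization the difference of Cox6a2 and Cox6a1 was higher on every Mesonephros_theca array, and the other pairs still overlapped. No exact test was run on those values. Exact two-sided permutation tests of the deposited values gave p-values of 0.2 to 1, or 0.5 to 1 adjusted over the 5 pairs, and with 3 arrays a group the smallest possible is 0.1.

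Complex V had a median change of 0.056 (11 of 17 above 0), and of −0.17 (3 above 0) after quantile normalization. Its median gene lay at 0.22, −0.095 and 0.18 on the Mesonephros_theca replicates, against 0.15, −0.14 and −0.026 on the Ovary_theca replicates, with overlap. In the F1 head, Atp5a1 (subunit alpha) had signals of 26072, 19854 and 15662 on Mesonephros_theca arrays, against 11801, 13370.1 and 14714 on Ovary_theca arrays. Each Mesonephros_theca array was higher, at 20529.6 ± 5237 in Mesonephros_theca and 13295 ± 1458 in Ovary_theca samples (mean ± SD, n = 3 each). Its change was 0.60 ± 0.21 (limma, adjusted p of 0.3), and −0.011 after quantile normalization, with other probe sets at 0.66 and −0.11. Atp5b (subunit beta, with the catalytic sites) had 6666, 4673 and 5736 (Mesonephros_theca) against 7028, 7429.5 and 6281 (Ovary_theca). It overlapped as deposited, at −0.29 ± 0.19, and not after quantile normalization, at −0.55 ± 0.15 (limma, adjusted p of 0.248). Atp5c1, the central gamma shaft, stood at 0.056 ± 0.18 as deposited and −0.17 after quantile normalization, where its groups no longer overlapped, and at −0.091 with its other probe set.

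The peripheral stalk, which keeps the head from turning, held genes of both directions. Atp5h (subunit d) had signals of 16933, 15310.3 and 12621 on Mesonephros_theca arrays, against 9495, 9786 and 10936 on Ovary_theca arrays. All Mesonephros_theca arrays were higher, with a change of 0.56 ± 0.17 (limma, adjusted p of 0.263) and of 0.10 ± 0.095 after quantile normalization, but its other probe set stood at −0.37. Atp5pb (subunit b) had 2108, 1790.3 and 2482 (Mesonephros_theca) against 3885, 2743 and 2697 (Ovary_theca). Here each Mesonephros_theca array was lower, with a change of −0.54 ± 0.22 (limma, adjusted p of 0.354), −0.57 after quantile normalization and −0.75 with its other probe set. Atp5o, which ties the stalk to the head, stood at −0.23 ± 0.18 as deposited, with overlap, and −0.42 after quantile normalization, without it, and at −0.10 with its other probe set.

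The c ring, which turns as protons pass, is made of a single mature protein that several genes encode. Atp5g1 had signals of 1694, 1412 and 1837 on Mesonephros_theca arrays, against 2972, 2015 and 2084 on Ovary_theca arrays. The groups did not overlap, with a change of −0.50 ± 0.23 (limma, adjusted p of 0.374) and −0.50 after quantile normalization, while its other probe set stood at 0.13. The other genes of the ring were closer to 0, Atp5g2 at −0.0028 ± 0.23 and Atp5g3 at 0.15 ± 0.17, both with overlap.

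**Figure D4:**
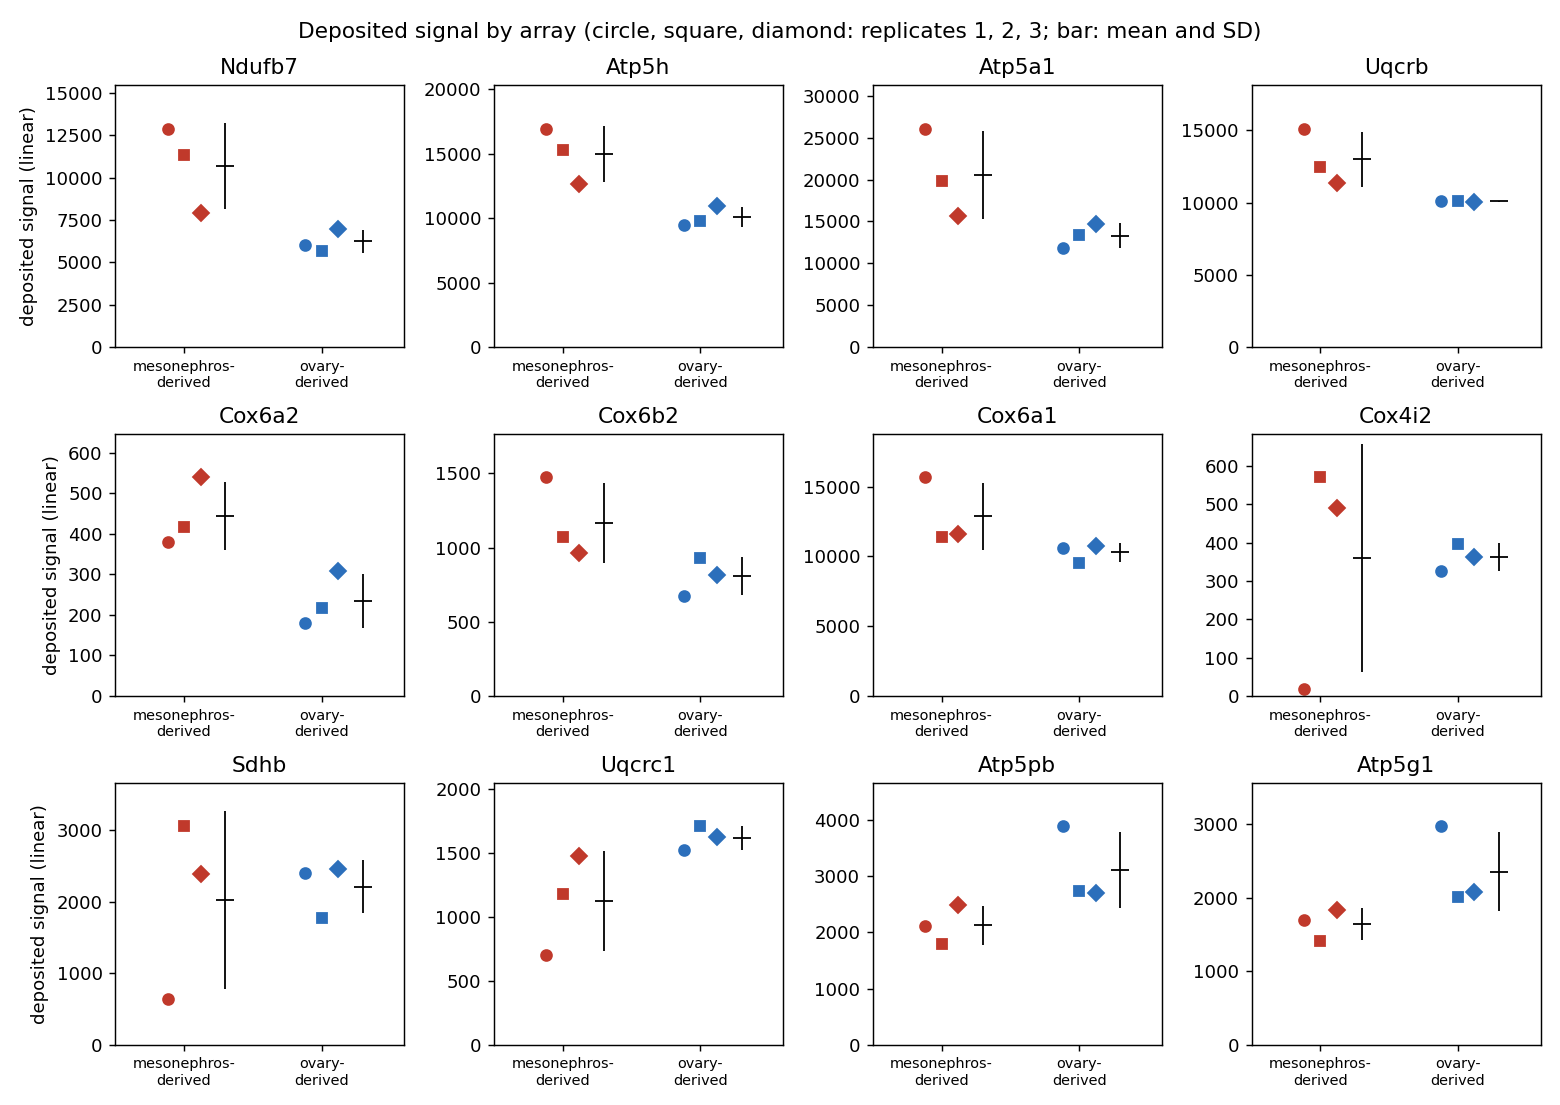
Deposited linear signal (y axis, from 0) of 12 subunit genes on each array, Mesonephros_theca in red at left and Ovary_theca in blue at right; circle, square and diamond are replicates 1, 2 and 3, and the bar is mean and SD. Ndufb7, Atp5h, Cox6a2 and Cox6b2 are higher and Atp5g1 and Atp5pb lower on all Mesonephros_theca arrays, and Cox4i2 and Sdhb have 1 low Mesonephros_theca array.

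Other genes of the pathway were counted from fixed lists, and 0 of them passed the test, beside 0.0427% of all genes. For these lists, 6612 of all 11703 genes were below 0 as deposited (43.5% above it), and 6511 of 11704 after quantile normalization (44.4% above it). Assembly factors of complex I were mostly below 0 (11 of 14, median −0.19), and 9 of 14 were after quantile normalization (median −0.15). Tmem126b, which helps to build the membrane arm, had signals of 307, 259 and 409.6 on Mesonephros_theca arrays, against 610.1, 606 and 666 on Ovary_theca arrays. All Mesonephros_theca arrays were lower, with a change of −0.94 ± 0.30 (limma, adjusted p of 0.279). Of the assembly factors of complexes II to V, 14 were above and 15 below 0, and 13 above and 16 below after quantile normalization. Among them were the copper chaperone Cox17 at 0.53 ± 0.18 and the F1 assembly factor Atpaf1 at −0.63 ± 0.26. Of the 7 chain components outside the naming rule 6 were below 0, such as Etfb, a subunit of the electron transfer flavoprotein, at −0.40 ± 0.22.

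Genes of the citric acid cycle and pyruvate dehydrogenase, which supply the electrons, were below 0 in 11 of 17 cases (median −0.22). After quantile normalization 12 of the 17 were below 0 (median −0.20). Cs, citrate synthase, was not among them, with signals of 5258, 6042 and 4518 on Mesonephros_theca arrays, against 3119, 2986 and 3593 on Ovary_theca arrays. All Mesonephros_theca arrays were higher, with a change of 0.70 ± 0.18 (limma, adjusted p of 0.238) and 0.58 after quantile normalization. Fh1, fumarase, had 1166, 562 and 1287 (Mesonephros_theca) against 1503, 1388 and 1878 (Ovary_theca), lower on all Mesonephros_theca arrays, a change of −0.73 ± 0.33. Regulators of mitochondrial genes were below 0 in 7 of 11 cases under both scalings, beside the counts over all genes given above. Tfam, which packages and transcribes mitochondrial DNA, had 171, 417 and 422 (Mesonephros_theca) against 809, 768 and 615 (Ovary_theca), lower on all Mesonephros_theca arrays. Its change was −1.18 ± 0.39 (limma, adjusted p of 0.287) and −1.08 after quantile normalization.

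The mitochondrial steroid chain draws on the same organelle, and its 3 tested genes were above 0 under both scalings. Fdx1, a ferredoxin that serves mitochondrial P450 enzymes, had signals of 6129, 10686 and 9031 on Mesonephros_theca arrays, against 4672, 3915 and 4331 on Ovary_theca arrays. The groups did not overlap, with a change of 0.96 ± 0.22 (limma, adjusted p of 0.212). Cyp11a1, the side-chain cleavage enzyme, stood at 1.22 ± 0.46 and Star, the cholesterol carrier, at 0.86 ± 0.40, both with overlap, and both are also in the list of theca markers. Of the 78 subunit genes, 13 reached 0.5 log2 units in either direction, the limit chosen after the values were seen. The share of all genes that reached it is not given here, so this count does not set subunit genes apart. The difference between subunit genes and the steroid chain was not tested.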

How the data were processed

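RNA of 6 samples was amplified from a fixed volume and hybridised to 1-colour oligonucleotide arrays, per the labels' protocols. The authors deposited 1 linear intensity per probe set, made with MAS5 per the submitters' processing notes. Neither its version nor a genome build is given in the sources used here. Of 45101 probe sets, 64 controls were set aside, 34945 had 1 symbol, 932 several and 9160 none here. All 80 members matched RefSeq genes (GRCm38.p6), with 0 symbols altered.

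Intensities were taken as log2(signal + 16), as deposited and after quantile normalization, and fitted in limma 3.58.1 under R 4.3.3 (lmFit, eBayes with trend, group only). On this scale the change of dim genes is understated. The fit was run on simulated data with planted changes larger than that of any member and the same noise in both groups. It therefore does not show the power for changes of the size seen here. Members, lists, roles, pairs, motifs and settings were chosen with earlier results of these data known. Named members were, in each complex, up to 4 with the smallest p as deposited and 2 after quantile normalization, plus a fixed set of core subunits and isoforms; from each other list, at most 3 with the smallest p. Of 44 members with further probe sets past the floor, 26 had at least 1 on the other side of 0. No pair of arrays shared over 1 value. Having 3 arrays a group limits the precision. Alternatives were pseudocounts 1 and 64, no floor or the 60th percentile, 2 other scalings, other choices of probe sets, no trend, array weights, a replicate block, a poly-A covariate and leaving out each array.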

Additional observations from a re-analysis of the deposited data

How the results depend on the processing

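Under all 18 alternatives limma called 0 members. At an unadjusted p of 0.05 the members numbered 0 with the poly-A covariate, where 2.61% of all genes passed, up to 13 of 77 without Mesonephros_theca replicate 3, where 20.7% did. Quantile normalization moved the median of all members to −0.13, of complex I to −0.055, of complex IV to −0.14 and of complex V to −0.17. The poly-A covariate moved complex II to 0.19, complex III to 0.077 and complex IV to 0.0095. The mean of probe sets gave −0.0079 for all members and −0.023 for complex I, and leaving out _x_at and _s_at probe sets gave −0.0028 for complex V. The causes were not tested. Without single arrays the median was −0.0066 to 0.12 over all members, −0.0025 to 0.13 for complex I, −0.72 to 0.18 for complex II, −0.20 to −0.034 for complex III, 0.13 to 0.29 for complex IV and −0.0045 to 0.15 for complex V. The high end of complex II was without Mesonephros_theca replicate 1. Over all genes limma called 5, but 3 with a pseudocount of 1, 2 after median centring, 8 with the mean of probe sets, 129 with array weights, 0 without the trend (1504 at an unadjusted p of 0.05) and 0 with the poly-A covariate (306). Without single arrays it called 0 to 46 (638 to 2432 at an unadjusted p of 0.05), 46 without Mesonephros_theca replicate 1, 3 without replicate 2 and 0 without any other. With the replicate block it called 4 genes and 0 members. Same-numbered arrays deviated from their group means with correlations of 0.0044, 0.042 and 0.024. No pairing by number was seen in these values, but with 3 arrays a group they cannot show that none exists.

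Of 715 values of 40 named members under an alternative, 54 took the other sign. After quantile normalization these were Atp5a1 −0.011, Atp5c1 −0.17, Atp5g3 −0.19, Cox4i1 −0.17, Cox6a1 −0.16, Cox6b1 −0.023, Cox7a2 −0.14, Cox7a2l −0.29, Ndufa13 −0.0054, Ndufb11 −0.30, Sdha −0.050 and Uqcrb −0.11. With the poly-A covariate they were Atp5a1 −0.030, Atp5c1 −0.023, Atp5g2 0.59, Atp5g3 −0.055, Cox4i1 −0.15, Cox4i2 0.99, Cox7a2l −0.049, Cox8c −0.34, Ndufb10 0.54, Ndufs3 0.23, Ndufv1 0.18, Sdhb 0.30, Sdhc 0.74, Uqcrc1 0.061, Uqcrc2 0.24 and Uqcrh 0.0059. With median centring they were Atp5g2 0.075 and Uqcrc2 0.019, with the mean of probe sets Atp5c1 −0.018, Cox7a2l −0.090, Ndufb11 −0.14 and Sdha −0.19, without _x_at and _s_at probe sets Atp5c1 −0.091, Ndufs8 −0.38 and Sdha −0.16, and with array weights Atp5g2 0.14, Ndufv1 0.064, Sdhb 0.051 and Uqcrc2 0.079. Without single arrays the ranges that crossed 0 were −0.075 to 0.15 for Atp5c1, −0.14 to 0.17 for Atp5g2, −0.10 to 0.15 for Cox4i1, −1.52 to 0.53 for Cox4i2, −0.43 to 0.070 for Cox7a1, −0.028 to 0.11 for Cox7a2l, −0.066 to 0.28 for Ndufb11, −0.012 to 0.16 for Ndufv2, −0.82 to 0.30 for Sdhb, −0.80 to 0.13 for Sdhc and −0.17 to 0.11 for Uqcrc2.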

Other observations

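Mitochondrial ribosomal proteins, which translate the subunits encoded in mitochondrial DNA, had 27 of 76 tested genes above 0 and 49 below, with a median change of −0.11, or −0.074 after quantile normalization, beside −0.082 and −0.065 over all genes. Their counts above 0 were the same, 27, under both scalings. None passed the test, beside 0.0427% of all genes. At an unadjusted p of 0.05 in limma 2 were higher and 7 lower, where 6.46% and 7.22% of all genes were. Mrpl11, a protein of the large subunit, had signals of 9573, 12132 and 4810.4 on Mesonephros_theca arrays, against 4673, 3529.8 and 3701 on Ovary_theca arrays, higher on all Mesonephros_theca arrays, a change of 1.06 ± 0.32 (limma, adjusted p of 0.263). Mrps23, of the small subunit, had 268, 164 and 347 (Mesonephros_theca) against 552, 520.0 and 528 (Ovary_theca), lower on all Mesonephros_theca arrays, a change of −1.05 ± 0.35 (limma, adjusted p of 0.288). Mrpl3, of the large subunit, had 662, 777 and 1105 (Mesonephros_theca) against 1530.4, 1415 and 1259 (Ovary_theca), also lower on all Mesonephros_theca arrays, a change of −0.74 ± 0.26 (limma, adjusted p of 0.3).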
